A study of Homo sapiens with 6 samples.

Results

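Vitamin D is activated, inactivated and sensed by a short series of proteins, and 7 genes of that series were followed here in cultured kidney tubule cells. They were taken by symbol from the deposited table: the hydroxylases CYP2R1, CYP27A1, CYP27B1 and CYP24A1, the vitamin D receptor VDR, and the retinoid X receptors RXRA and RXRB. They are 7 of the 58825 genes in the table, and each of them was among the 19510 genes tested, which had a mean of at least 0.1 FPKM (fragments scaled for transcript length and library size) over the 6 libraries. HK-2 is an immortalized cell line from human kidney tubular epithelium. The study asked what oxidized low-density lipoprotein (OX-LDL) does to these cells, and poly(A) RNA was sequenced from 3 untreated Control samples and from 3 samples given OX-LDL at 25 μg/mL for 48 h. The study's methods place a period of low serum before the treatment, and no genetic change or other agent is named for either group. The labels do not say whether the 3 samples of a group came from separate cultures, so the p-values below measure the spread between these samples, which may be technical. RNA was measured in bulk, so fewer cells of a kind and less RNA per cell cannot be told apart.

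Vitamin D reaches the circulation from skin and diet and is hydroxylated mainly in the liver to calcidiol. The kidney proximal tubule is the best known site of the next step, in which CYP27B1 converts calcidiol to the hormone calcitriol, while CYP24A1 breaks down both calcidiol and calcitriol. Calcitriol binds VDR, which pairs with a retinoid X receptor on paired hexamer elements in DNA. CYP24A1 is among the best known targets of that receptor pair, so in many tissues the hormone raises the enzyme that removes it.

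The libraries held 62561347 to 76797607 deposited counts. Counts piled up at steps of 4, so 1 read pair was taken to give about 4 counts. Pooled over the libraries, counts of 4, 8 and 12 were 3.26, 2.95 and 2.13 times as frequent as the counts beside them. A gene with at most 12 counts in every library, which is 3 read pairs, is called not detected, and this limit covers counting error only. Of 12 proximal tubule markers, 8 were detected, and LRP2, SLC22A6 and SLC22A8 had 0 counts in every library. The summed level of the 12 ranged from 7.31 to 22.6 FPKM over the Control libraries and from 18.9 to 21.6 FPKM in OX-LDL, and nearly all of it was GGT1 (3.13 to 18.2 FPKM in Control, 15.8 to 17.7 FPKM with OX-LDL) and MME (3.73 and 3.21 FPKM on average). All 9 general markers of renal epithelium were detected, with EPCAM at 51.2 ± 3.68 FPKM in Control against 53.1 ± 3.13 FPKM with OX-LDL (SD, n = 3), but CDH1 was near 0.1 FPKM in both groups. Their summed level was 194 to 226 FPKM in Control against 228 to 271 FPKM with OX-LDL. Among them KRT19 and KRT8 rose and PAX8 fell (edgeR's quasi-likelihood test, adjusted p under 0.05). The general leukocyte marker PTPRC was not detected, whereas CD68, found in many cell types and high in macrophages, was at 5.21 ± 2.39 FPKM in Control against 10.8 ± 2.45 FPKM with OX-LDL (edgeR adjusted p = 0.086). Of the 6 leukocyte markers 2 were detected. The summed level of the 6 was 2.81 to 7.61 FPKM in Control against 8.92 to 13.7 FPKM with OX-LDL, nearly all of it CD68. The sum over 6 fibroblast markers was 10.1 to 12 FPKM against 8.77 to 14.1 FPKM, nearly all of it LUM (10.2 and 11.4 FPKM on average), while DCN and PDGFRA were not detected. The part of these shifts in the results below was not tested.

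OX-LDL was followed by a large rise of CYP24A1, the enzyme of breakdown, and no other gene of the 7 passed the test. In the test over all genes, 1 of the 7 had an adjusted p under 0.05, beside 15.3% of the 19510 genes tested (7.91% higher and 7.42% lower). At an unadjusted p under 0.05 it was 3 of the 7 (CYP24A1, CYP2R1 and CYP27A1), beside 30.4%. The 2 groups of libraries did not overlap for CYP24A1 and CYP27A1, which were higher in OX-LDL, and for CYP2R1, which was lower. Groups without overlap were common, at 37.2% of all genes tested (16.8% with OX-LDL higher and 20.5% with OX-LDL lower). Levels are deposited FPKM, whereas log2 fold changes are OX-LDL over Control from edgeR's model of the counts, with their standard errors (SE) and p-values adjusted over all genes tested.

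**Figure D1:**
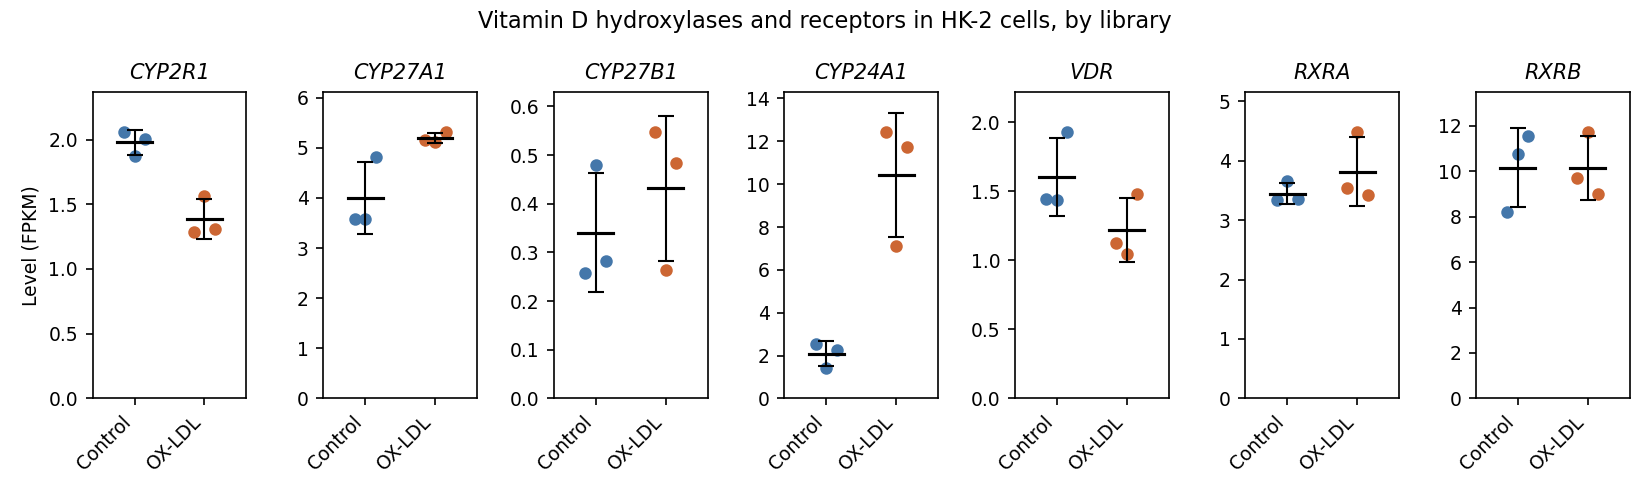
Level of each of the 7 genes in FPKM (vertical axes from 0, a separate scale for each gene) in 3 Control and 3 OX-LDL libraries. Points are libraries, horizontal bars are means and error bars are SD. The OX-LDL points of CYP24A1 (7.13 to 12.4 FPKM) all lie above its Control points (1.42 to 2.54 FPKM), while the groups of CYP27B1, VDR, RXRA and RXRB overlap.

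The enzymes that make calcidiol are described before the others. CYP2R1 (ENSG00000186104, GRCh38 chr11:14877440-14892252, minus strand) encodes the main enzyme that adds the first hydroxyl group to vitamin D. Its level was 2.06, 1.87 and 2.00 FPKM in Control 1, 2 and 3, and 1.29, 1.56 and 1.31 FPKM in OX-LDL 1, 2 and 3. Every OX-LDL library was thus below every Control library, with OX-LDL 2 the nearest to them. The means were 1.98 ± 0.0949 FPKM in Control against 1.39 ± 0.152 FPKM with OX-LDL (SD, n = 3). The log2 fold change of -0.48 (SE 0.14, 95% interval -0.81 to -0.15) did not pass the test across all genes (unadjusted p = 0.0116, edgeR adjusted p = 0.0652). This gene lay close to the threshold: the edgeR adjusted p was 0.0440 without OX-LDL 2 (log2 fold change -0.57), and 0.0131 in DESeq2.

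The receptor pair of VDR and RXR is known for binding hexamers such as AGGTCA, 2 of them in a row with 3 bases between. It was searched together with AGTTCA, a form found in many known elements, and with the forms that start with G, GGGTCA as well as GGTTCA, on both strands in the 250 bases before each annotated start in RefSeq's promoter windows (GRCh38.p14). The windows cover 4 of the 7 genes, CYP2R1, CYP27A1, RXRA and RXRB, with 8 windows in all. CYP24A1, CYP27B1 and VDR were not matched. A hexamer was found in 4 of the 8 windows, beside 33.8% of all 35116 windows. The spaced pair was found in 0 of the 8, beside 0.0655% of all windows (23 windows), so its absence from 8 is no observation about these genes. The 30-base stretches below show where each hexamer stood, in capitals, with the gene's own strand written 5′ to 3′ and a hexamer on the opposite strand seen as its reverse complement. The distance in bases before the start is that of the hexamer. A match is a sequence of letters, not a measured binding site. For CYP2R1 they stood at 96, 248 and 212 bases before a start.
CYP2R1, chr11:14891750-14891779, minus strand: cgcccctgccggTGACCCactccgggccga
CYP2R1, chr11:14892664-14892693, minus strand: atGGGTCAattttctactggaaattctgaa
CYP2R1, chr11:14892638-14892667, minus strand: tgaaaagtatcaGGTTCAgctaaagactgc

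CYP27A1 (ENSG00000135929, chr2:218781749-218815293, plus strand) encodes a mitochondrial sterol hydroxylase of bile acid synthesis that can also make calcidiol. Its level was 3.59, 3.58 and 4.82 FPKM in Control 1, 2 and 3, and 5.16, 5.11 and 5.32 FPKM in OX-LDL 1, 2 and 3. The groups did not overlap, but Control 3 stood nearer to the OX-LDL libraries than to the other Control libraries. The means were 4.0 ± 0.714 FPKM in Control against 5.20 ± 0.107 FPKM with OX-LDL (SD, n = 3). The log2 fold change was 0.41 (SE 0.15, 95% interval 0.06 to 0.76) and did not pass (unadjusted p = 0.0267, edgeR adjusted p = 0.111). Without Control 3 it was 0.57 and the edgeR adjusted p was 0.0390, and DESeq2 gave an adjusted p of 0.0486. The gene overlaps AC009974 on the other strand, and whether the counting used the strand is not given in the sources used here. Its RefSeq window held hexamers at 248 and 45 bases before the start.
CYP27A1, chr2:218781897-218781926, plus strand: agAGTTCAgaccaagcgaaaagttatttga
CYP27A1, chr2:218782090-218782119, plus strand: agcgcccggcttTGAACCcgccctgcactg

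CYP27B1 (ENSG00000111012, chr12:57762334-57767095, minus strand) encodes the enzyme that makes calcitriol, and it had the lowest level of the 7 genes. Its level was 0.26, 0.48 and 0.28 FPKM in Control 1, 2 and 3, and 0.55, 0.26 and 0.48 FPKM in OX-LDL 1, 2 and 3. The groups overlapped throughout, with Control 2 among the OX-LDL values and OX-LDL 2 among the Control values. The means were 0.340 ± 0.122 FPKM and 0.432 ± 0.149 FPKM (SD, n = 3), with a log2 fold change of 0.38 (SE 0.38, 95% interval -0.52 to 1.28, edgeR adjusted p = 0.562). These values rest on 76 to 146 counts, about 19 to 36.5 read pairs a library. A change of the size seen for CYP24A1 lies outside the interval, but a doubling or a moderate fall does not.

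CYP24A1 (ENSG00000019186, chr20:54153446-54173986, minus strand) encodes the mitochondrial enzyme that inactivates calcidiol and calcitriol. Its level was 2.54, 1.42 and 2.26 FPKM in Control 1, 2 and 3, and 12.4, 7.13 and 11.7 FPKM in OX-LDL 1, 2 and 3. The lowest OX-LDL library was well above the highest Control library, and replicate 2 was the lowest in each group. The means were 2.07 ± 0.584 FPKM in Control against 10.4 ± 2.88 FPKM with OX-LDL (SD, n = 3). The rise was 5.10-fold, a log2 fold change of 2.35 (SE 0.30, 95% interval 1.65 to 3.05), with an edgeR adjusted p of 0.00523. The gene had 507 to 893 counts in Control and 2586 to 4233 in OX-LDL, far above the detection limit. Among the 19510 genes tested it ranked 216 by log2 fold change and 385 by p-value, and 3.19% of genes had a fold change above 2 with an unadjusted p under 0.05. Leaving out any single library gave log2 fold changes of 2.13 to 2.56. The study also picked CYP24A1 for real-time PCR, which it ran in Apoe−/− mice, so the gene's presence here is not independent of its response.

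VDR (ENSG00000111424, chr12:47841537-47943048, minus strand) encodes the nuclear receptor of calcitriol. Its level was 1.45, 1.43 and 1.93 FPKM in Control 1, 2 and 3, and 1.12, 1.05 and 1.48 FPKM in OX-LDL 1, 2 and 3. The groups overlapped, since OX-LDL 3 lay above Control 1 and Control 2, and the other OX-LDL libraries lay below every Control library. The means were 1.6 ± 0.283 FPKM and 1.22 ± 0.233 FPKM (SD, n = 3), with a log2 fold change of -0.36 (SE 0.20, 95% interval -0.84 to 0.11, edgeR adjusted p = 0.275). The fitted value stayed below 0 without any single library, from -0.53 to -0.21, and passed in none of these fits. VDR overlaps genes of the AC121338 clone on the other strand.

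The retinoid X receptors are partners shared by VDR and many other nuclear receptors. RXRA (ENSG00000186350, chr9:134317098-134440585, plus strand, with MIR4669 inside it) was at 3.33, 3.65 and 3.36 FPKM in Control 1, 2 and 3, and at 3.54, 4.49 and 3.43 FPKM in OX-LDL 1, 2 and 3. Control 2 lay above 2 of the OX-LDL libraries. The means were 3.45 ± 0.178 FPKM and 3.82 ± 0.580 FPKM (SD, n = 3), and the log2 fold change was 0.18 (SE 0.12, 95% interval -0.10 to 0.46, edgeR adjusted p = 0.370). One of its RefSeq windows held a hexamer 236 bases before the start.
RXRA, chr9:134379047-134379076, plus strand: gcagctcctgctGGGTCActtgcctgccag

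RXRB (ENSG00000204231, chr6:33193588-33200688, minus strand) was the most abundant of the 7 genes in Control. Its level was 8.22, 10.7 and 11.5 FPKM in Control 1, 2 and 3, and 9.70, 11.7 and 9.02 FPKM in OX-LDL 1, 2 and 3. The groups covered nearly the same range, with means of 10.2 ± 1.73 FPKM and 10.2 ± 1.41 FPKM (SD, n = 3). The log2 fold change was 0.03 (SE 0.15, 95% interval -0.33 to 0.39, edgeR adjusted p = 0.920). Its sign turned, to -0.09, without Control 1 and also without OX-LDL 2. RXRB overlaps SLC39A7 and RNY4P10 on the other strand. For RXRA and RXRB the intervals leave out a doubling and a halving, whereas a smaller change could not be detected with these libraries.

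**Figure D2:**
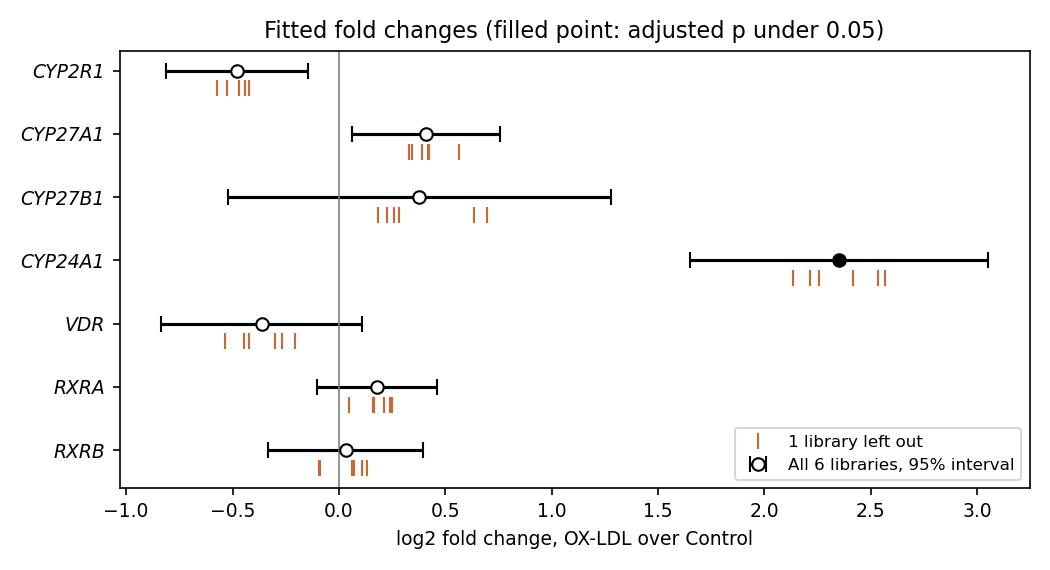
Fitted log2 fold change, OX-LDL over Control (horizontal axis), of the 7 genes with all 6 libraries and the 95% interval, and below each the values with 1 library left out. The point of CYP24A1 is filled (adjusted p under 0.05) and its interval, 1.65 to 3.05, lies above those of the other 6 genes.

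The order of the levels changed with CYP24A1. In Control, RXRB was highest, at 10.2 FPKM, followed by CYP27A1 (4.0 FPKM) and RXRA (3.45 FPKM), whose ranges overlapped. CYP24A1 (2.07 FPKM), CYP2R1 (1.98 FPKM) and VDR (1.6 FPKM) came next, with ranges that overlapped between neighbours, and CYP27B1 (0.340 FPKM) was last and apart. In OX-LDL, CYP24A1 (10.4 FPKM) stood beside RXRB (10.2 FPKM), and their ranges overlapped. Below them came CYP27A1 (5.20 FPKM) and RXRA (3.82 FPKM), each apart from its neighbours, then CYP2R1 (1.39 FPKM) and VDR (1.22 FPKM), which overlapped, and again CYP27B1 (0.432 FPKM). These are levels per kilobase of transcript, so they may be set side by side between genes, with a limit. RXRB, CYP27A1 and VDR overlap genes on the other strand, and whether the counting used the strand is not given. Their levels may therefore include reads of those genes.

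The level of the enzyme of breakdown was divided by that of the activating enzyme in each library. The ratio of CYP24A1 to CYP27B1 in FPKM was 9.83, 2.96 and 8.02 in Control 1, 2 and 3, and 22.7, 27.1 and 24.2 in OX-LDL 1, 2 and 3. The OX-LDL libraries lay close together and above every Control library, and Control 2 was lowest. On the log2 scale the mean ratio was 2.62 ± 0.928 in Control and 4.62 ± 0.128 in OX-LDL (SD, n = 3), a difference of 2.00 (two-sided exact permutation p = 0.1, the smallest that 3 against 3 can give). The difference was 1.47 without Control 2. The divisor, CYP27B1, rests on about 19 to 36.5 read pairs a library, so the spread of the ratio holds its counting error too. The difference also restates the log2 fold changes of CYP24A1 (2.35) and of CYP27B1 (0.38), of which the latter did not pass. The ratio compares RNA levels and says nothing of enzyme activity.

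**Figure D3:**
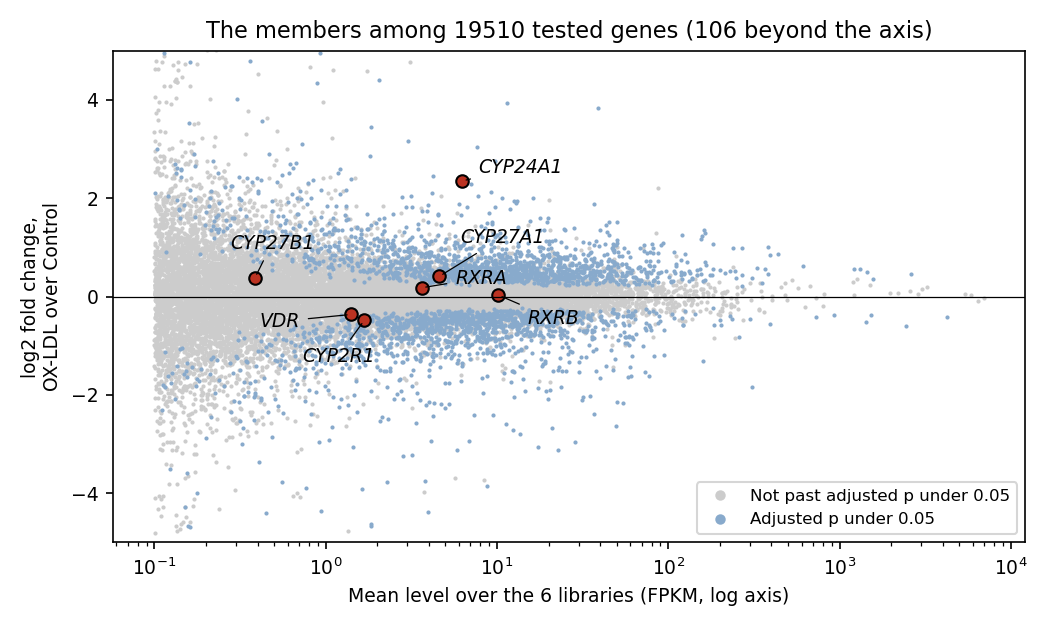
Log2 fold change, OX-LDL over Control (vertical axis), against the mean level over the 6 libraries (FPKM, log axis) for the genes tested, with 106 genes beyond the limits of the vertical axis (5 in either direction). Blue points passed adjusted p under 0.05 and red points are the 7 genes. CYP24A1, at 2.35, stands above most genes of its level, and the other 6 lie within the dense band around 0.

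The genes around this system were read from 7 lists by role, of which the counts and medians stand beside 15.3% called and a median log2 fold change of -0.0043 over all genes tested. Of 30 genes known as vitamin D targets, 21 were detected and 17 were tested, with 3 higher, 3 lower, and the median log2 fold change was -0.04. CYP24A1 was not put on this list. The targets of calcium transport TRPV6, TRPV5 and S100G were not detected, and nor were SLC34A2, CST6, TNFSF11, FGF23, BGLAP and CYP3A4. IGFBP3, which binds insulin-like growth factors, was at 7.69, 5.77 and 8.53 FPKM in Control 1, 2 and 3 and at 22.0, 13.7 and 22.0 FPKM in OX-LDL 1, 2 and 3. As for CYP24A1, replicate 2 was the lowest in each group of IGFBP3. Its log2 fold change was 1.42 (SE 0.23, edgeR adjusted p = 0.0107). KL, the klotho co-receptor of FGF23, rose from 4.61 ± 0.351 to 6.77 ± 0.357 FPKM (log2 fold change 0.59, SE 0.10, edgeR adjusted p = 0.0115, SD with n = 3). SEMA3B, a secreted semaphorin, was at 1.31 ± 0.0716 FPKM in Control against 1.84 ± 0.187 FPKM with OX-LDL (SD, n = 3), with a log2 fold change of 0.52 (SE 0.14, edgeR adjusted p = 0.0456).

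Among the targets that fell, the change was largest for CDKN1A. CDKN1A, the cell cycle inhibitor p21, was at 17.4, 23.3 and 20.6 FPKM in Control 1, 2 and 3 and at 6.77, 8.14 and 7.31 FPKM in OX-LDL 1, 2 and 3, with no overlap. Its log2 fold change was -1.43 (SE 0.13, edgeR adjusted p = 0.00185). G0S2, an inhibitor of triglyceride breakdown, fell from 8.48 ± 1.12 to 3.25 ± 0.681 FPKM (log2 fold change -1.34, SE 0.21, edgeR adjusted p = 0.0103, SD with n = 3). DUSP10, a phosphatase of stress kinases, fell from 13.9 ± 2.72 to 7.53 ± 0.591 FPKM (log2 fold change -0.85, SE 0.15, edgeR adjusted p = 0.0142, SD with n = 3). With 1 library left out, IGFBP3, CDKN1A and G0S2 passed in 6 of 6 fits. KL was lost without OX-LDL 3 (edgeR adjusted p = 0.0505), DUSP10 without Control 2 and without OX-LDL 3 (up to 0.0607), and SEMA3B in each of the 6 (up to 0.144).

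Several genes of uptake and transport of the circulating vitamin were not detected. Of 8 genes, 5 were detected and 3 were tested, of which 1 was called, higher, and the median log2 fold change was 0.38. LRP2, the megalin receptor that retrieves calcidiol with its carrier from the filtrate, had 0 counts in every library. The carriers GC and ALB were not detected, and CUBN and AMN, megalin's partners, were detected but under the minimum level. DAB2, the adaptor of megalin endocytosis, rose from 2.35 ± 0.139 to 2.99 ± 0.116 FPKM (log2 fold change 0.38, SE 0.09, edgeR adjusted p = 0.0377, SD with n = 3). Its call was lost in 5 of 6 fits with 1 library left out, all but that without OX-LDL 2, with an adjusted p of up to 0.115. The count of 3 tested genes is too small to be set against the background.

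The electron donors and other P450 enzymes that act on vitamin D showed no call. Of 9 genes, CYP3A4 and CYP11A1 were not detected and 7 were tested, with a median log2 fold change of -0.17. In edgeR 0 of the 7 passed, although 2 had an unadjusted p under 0.05, and DESeq2 called 2. Ferredoxin and its reductase, which feed electrons to CYP24A1, CYP27A1 and CYP27B1 in mitochondria, are among the genes tested without a call.

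The cofactors of the receptor were all expressed and moved in both directions. Of 15 tested, 2 were higher and 4 were lower, and the median log2 fold change was -0.20. CREBBP, a histone acetyltransferase that joins many nuclear receptors, was at 8.41, 9.12 and 8.39 FPKM in Control 1, 2 and 3 and at 5.42, 5.25 and 5.24 FPKM in OX-LDL 1, 2 and 3. Its log2 fold change was -0.67 (SE 0.06, edgeR adjusted p = 0.00224), and it passed in 6 of 6 fits with 1 library left out. BAZ1B, a chromatin remodelling subunit, fell from 57.8 ± 0.678 to 44.4 ± 1.71 FPKM (log2 fold change -0.35, SE 0.06, edgeR adjusted p = 0.0145, SD with n = 3). Without OX-LDL 1 its edgeR adjusted p was 0.0554, although the OX-LDL libraries that remained, each at 45.4 FPKM, lay below the Control range of 57.3 to 58.6 FPKM. NCOR1, a corepressor, and EP300, the acetyltransferase related to CREBBP, had log2 fold changes of -0.44 and -0.31 (edgeR adjusted p = 0.0242 and 0.0275). HDAC3, a histone deacetylase of corepressor complexes, and SMARCA4, a remodelling ATPase, had log2 fold changes of 0.38 and 0.27 (edgeR adjusted p = 0.0185 and 0.0385). NCOR1, EP300 and HDAC3 passed in 2 of 6 fits with 1 library left out, and SMARCA4 in none, with adjusted p of up to 0.0831, 0.0868, 0.0685 and 0.120.

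**Figure D4:**
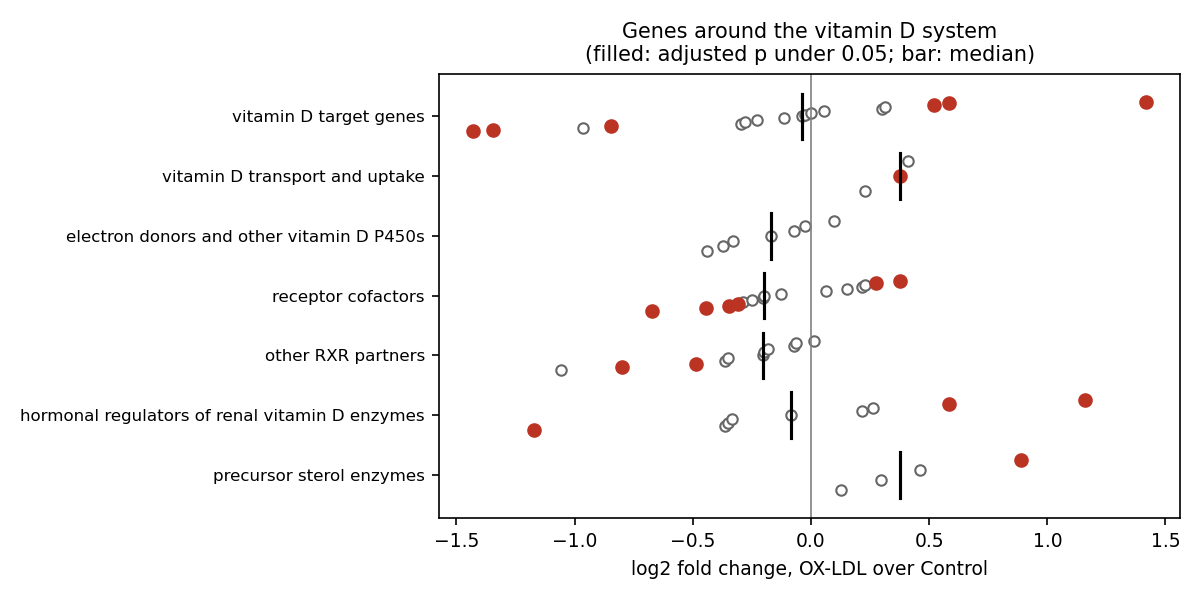
Log2 fold change, OX-LDL over Control (horizontal axis), of each gene tested in the 7 lists around vitamin D, with 1 row a list. Points spread vertically only to be seen apart, filled points passed adjusted p under 0.05, and bars are list medians, from -0.20 to 0.38. Calls lie on both sides of 0 in the lists of targets, cofactors and hormonal regulators.

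The other nuclear receptors that pair with RXR passed the test about as often as genes in general. Of 16 genes, 14 were detected (RXRG and NR1I2 were not) and 11 were tested, of which 2 were called, both lower, and the median log2 fold change was -0.20. NR1H2, the oxysterol receptor LXRβ, fell from 5.15 ± 0.396 to 3.59 ± 0.151 FPKM (log2 fold change -0.49, SE 0.09, edgeR adjusted p = 0.0185, SD with n = 3). THRA, a thyroid hormone receptor, fell from 3.73 ± 0.698 to 2.09 ± 0.371 FPKM (log2 fold change -0.80, SE 0.18, edgeR adjusted p = 0.0294, SD with n = 3). NR1H2 passed in 2 of 6 fits with 1 library left out and THRA in 1, with adjusted p of up to 0.0744 and 0.0997.

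Hormones set the renal hydroxylases through receptors, signalling proteins and transcription factors. Of 11 such genes 9 were tested, with 2 higher, 1 lower, and the median log2 fold change was -0.08. CASR, the calcium-sensing receptor, was not detected, and PTH1R, the parathyroid hormone receptor, was detected under the minimum level. FGFR3, a receptor that FGF23 can use with klotho, was at 1.93, 2.07 and 1.83 FPKM in Control 1, 2 and 3 and at 5.39, 3.57 and 3.84 FPKM in OX-LDL 1, 2 and 3. Its log2 fold change was 1.16 (SE 0.17, edgeR adjusted p = 0.00852). KL, described above, is also on this list. CEBPB, a transcription factor known to act on the promoters of both CYP27B1 and CYP24A1, fell from 14.5 ± 1.92 to 6.28 ± 1.45 FPKM (log2 fold change -1.17, SE 0.19, edgeR adjusted p = 0.0114, SD with n = 3). FGFR3 and CEBPB passed in 6 of 6 fits with 1 library left out.

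The enzymes of the last steps of cholesterol synthesis set how much of the sterol from which vitamin D is made remains in a cell. All 4 genes of this list were tested, and their median log2 fold change was 0.38.

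The neighbourhood of CYP24A1 on chromosome 20 was read to see whether the rise was shared along the chromosome. Of 9 genes within 500 kb, 2 were tested. PFDN4, a prefoldin subunit that lies 34.1 kb away on the other strand, rose from 13.6 ± 0.577 to 18.7 ± 0.634 FPKM (log2 fold change 0.49, SE 0.08, edgeR adjusted p = 0.0128, SD with n = 3). BCAS1, 82.9 kb away, was at 0.104 ± 0.0392 FPKM in Control against 0.138 ± 0.0144 FPKM with OX-LDL (log2 fold change 0.44, edgeR adjusted p = 0.465, SD with n = 3). Neither approached the 5.10-fold rise of CYP24A1. BCAS1 rests on 40 to 113 counts, with a 95% interval of -0.41 to 1.29. Of the 2 tested, 1 was called, beside 15.3% of all genes tested. With so few genes, whether a rise was shared along the chromosome cannot be decided.

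The genes most like CYP24A1 over the 6 libraries were sought among 12258 others with a mean of at least 1 FPKM, by the root mean square difference of log2 CPM (counts scaled for library size) centred on each gene's mean. CCDC80 (0.34), TSPAN13 (0.35), SLN (0.36), ACTBL2 (0.36) and CTHRC1 (0.36) were nearest, beside a median of 1.26 over those genes. For VDR they were SH3GLB2 (0.067), NDUFV1 (0.072), DPH5 (0.084), STUB1 (0.094) and DHRS4-AS1 (0.096), beside a median of 0.351. Among the 7 genes themselves, RXRA and RXRB were the closest pair, at 0.154. Both changed little (log2 fold changes of 0.18 and 0.03), and genes that vary little come out close by this measure. Whether RXRA and RXRB are regulated together was not tested. The distances are descriptions over 6 libraries of 2 groups.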

How the data were processed

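Poly(A) RNA of HK-2 cells was sequenced in 3 Control and 3 OX-LDL libraries, grouped by the treatment in the labels. The submitters' processing notes name cutadapt 1.9, HISAT2 2.0.4, StringTie 1.3.4d, edgeR and DESeq2, without roles, and the build GRCh38. The authors deposited estimated counts, which are whole numbers not scaled for library size, and FPKM values, which the authors scaled for transcript length and library size and set to 0.0001 where the count was 0. Of the gene identifiers shared with GENCODE, 81.2% had identical coordinates there. Those of CYP24A1 and CYP27B1 differ and are given as in the authors' table.

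Deposited counts were tested with edgeR 4.0.16 (R 4.3.3): TMM factors, then glmQLFit and glmQLFTest with the group as the only term, on those 19510 genes whose mean reached 0.1 FPKM, and Benjamini-Hochberg adjustment over all of them. The SE is the absolute log2 fold change over the square root of F, and 95% intervals use the t distribution. The fits were tested on simulated data. Within a group the chi-square per gene between libraries was 14.3 to 24.8. It was computed on counts divided by 4, where libraries that differ by counting error alone would give about 1 or less. None was thus taken for a copy, which does not show that they are separate cultures. Alternatives were DESeq2 1.42.0, limma 3.58.1 on log2(FPKM + 0.1) and log2(FPKM + 1), other scalings, other minimum levels, counts divided by 4, a replicate block and leaving out each library.

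The 7 genes, the lists and the tests were chosen with earlier results of these data known. Named in the text are the 7 genes, at most 6 genes of each list past adjusted p under 0.05, genes not detected, every tested gene within 500 kb of CYP24A1, and the 5 genes most like CYP24A1 and VDR. The markers of cell types, ferredoxin and its reductase, CUBN, AMN and PTH1R were named in addition, after their values had been seen. Some genes of the lists are not reported here.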

Additional observations from a re-analysis of the deposited data

How the results depend on the processing

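CYP24A1 kept its direction and its call in all 16 alternative fits, with log2 fold changes of 1.88 to 2.56 and adjusted p of 3.4e-15 to 0.0252, and VDR, RXRA and CYP27B1 passed in none of theirs. CYP27B1 could not be fitted at a minimum of 1 FPKM. CYP2R1 passed at -0.47 in DESeq2 and at -0.47 with a minimum of 1 FPKM, and CYP27A1 at 0.41 in DESeq2, so DESeq2 called 3 of the 7 genes and the 1 FPKM minimum called 2. With 1 library left out, log2 fold changes were -0.57 to -0.42 for CYP2R1, 0.33 to 0.57 for CYP27A1 and -0.09 to 0.13 for RXRB, whose sign turned without Control 1 (-0.093) and without OX-LDL 2 (-0.09), and 1 to 2 of the 7 genes were called. The genes called numbered 1161 to 2943 over all genes (4430 in DESeq2), 3 to 5 targets, 0 to 1 of transport, 0 to 1 electron donor, 1 to 6 cofactors, 0 to 3 RXR partners and 1 to 2 precursor sterol enzymes. Of the 3 transport genes tested, DESeq2, upper-quartile factors and the 1 FPKM minimum each called 3, while library totals, no minimum level, limma with either pseudocount and the replicate block each called 0. DESeq2 called 2 electron donors. The causes were not tested, except that leaving out a library leaves fewer samples. Higher genes were 51.6% of those called, and 45.6% to 55.1% over the alternatives.

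The groups share the replicate numbers 1 to 3, but the deviations of same-numbered libraries from their group means correlated at -0.109, -0.034 and -0.0015, so the numbers were not taken to pair the samples. With the replicate block, 1636 genes were called over all genes in place of 2991, 1 cofactor, and CYP24A1 was at 2.36 (edgeR adjusted p = 0.00612). The depth limits CYP27B1 most, at 19 to 36.5 read pairs a library.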

Other observations

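CYP24A1 was not the P450 gene with the largest change. The gene sets described here were looked at after the data had been seen. Of 56 genes with a P450 symbol, the vitamin D hydroxylases included, 28 were detected and 19 were tested. Of these, 2 were higher (CYP24A1 is one of them) and 3 lower, beside 15.3% called over all genes tested, and the median log2 fold change was 0.10. CYP17A1, the branch-point enzyme of androgen and cortisol synthesis, fell from 1.45 ± 0.810 to 0.0919 ± 0.0204 FPKM (SD, n = 3), with a log2 fold change of -3.89 (SE 0.53, edgeR adjusted p = 0.00694). CYP1A1, which metabolises aromatic hydrocarbons and is a known target of the aryl hydrocarbon receptor, fell from 1.27 ± 0.118 to 0.477 ± 0.0844 FPKM (SD, n = 3), with a log2 fold change of -1.38 (SE 0.21, edgeR adjusted p = 0.0090). CYP2U1, a fatty acid hydroxylase, had a log2 fold change of -0.65 (edgeR adjusted p = 0.0311). CYP51A1, a demethylase of cholesterol synthesis, rose from 37.8 ± 4.12 to 50.6 ± 4.88 FPKM (SD, n = 3), with a log2 fold change of 0.45 (edgeR adjusted p = 0.0423).

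The deposited table gives a gene ontology term with the words vitamin D to 66 genes other than the 7. Of these, 49 were detected and 41 were tested, with 6 higher and 7 lower, beside 15.3% called over all genes tested, and the median log2 fold change was -0.08. PHEX, a peptidase whose loss causes a form of rickets with phosphate wasting, rose from 1.62 ± 0.358 FPKM in Control with a log2 fold change of 1.42 (SE 0.18, edgeR adjusted p = 0.0052). STC2, a secreted stanniocalcin, fell with a log2 fold change of -0.94 (SE 0.08, edgeR adjusted p = 0.00182). These values are descriptions, and no cause was tested.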
